A study of Mus musculus with 16 samples.

Results

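The 54 genes described here encode subunits of ligand-gated ion channels: 17 of GABA-A receptors, 4 of AMPA, 5 of kainate and 7 of NMDA glutamate receptors, 5 of glycine receptors and 16 of nicotinic acetylcholine receptors. They were taken by gene symbol from the 35983 genes of a table of whole-testis mRNA levels. The family was picked because *Gabrb2* and *Gria4* had higher means in mutant than in control testes at postnatal day 3 (P3), so that contrast is given below as a description. The study deleted *Lrh1* (*Nr5a2*), an orphan nuclear receptor gene, in germ cells, Sertoli cells or Leydig cells of the fetal testis. The mRNA levels cover the germ cell and Sertoli cell deletions. Germ cell deletion was examined at P1 in *Lrh1* flox/-; *Nanos3-Cre* testes, in which Cre is active in germ cells, against *Lrh1* flox/- testes without Cre, so that 1 allele was already null in both groups. Sertoli cell deletion was examined at P3 in *Lrh1* flox/flox; *Dhh-Cre* testes, in which Cre is active in Sertoli cells, against *Lrh1* flox/flox testes without Cre. Each of the 4 groups had 4 samples, 16 in all, from mice of mixed 129Sv and C57Bl/6J background.

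The authors deposited 1 mean per group and gene, in FPKM (read fragments divided by gene length and by library size), and the values of single samples were not used here. No mean therefore carries an SD, no test across samples was made, and whether the samples of any pair of groups overlap is unknown. In the text below "higher" and "lower" refer to these group means, and a ratio counts as large when it is past 2-fold on the log2 scale after 0.1 FPKM was added to both means, so that the change of weakly expressed genes is understated. Ratios are counted only where the average of the compared groups reached 0.5 FPKM. The samples were whole testes, so more cells of a type and more RNA per cell cannot be told apart.

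GABA-A, glycine and nicotinic receptors are pentamers. GABA and glycine open chloride channels, and acetylcholine opens cation channels. AMPA, kainate and NMDA receptors are tetramers that glutamate opens to cations. All are known best from synapses, where their subunits are chosen from several genes per class, and a working channel usually needs subunits of particular kinds together. GABA and nicotinic receptors have also been described outside the nervous system, including in endocrine tissue.

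Promoter sequences are given for 4 members whose P3 ratios were past 2-fold: *Gabrb2* and *Gabra3* of the GABA-A class, *Gria4* of the AMPA class and *Glrb* of the glycine class. Each run is the 250 bases upstream of the first listed RefSeq transcript start on GRCm38.p6, written 5′ to 3′ on the strand of the gene, and capitals mark CG dinucleotides and the letters TATAAA on either strand.
Gabrb2, chr11:42420190-42420439, plus strand: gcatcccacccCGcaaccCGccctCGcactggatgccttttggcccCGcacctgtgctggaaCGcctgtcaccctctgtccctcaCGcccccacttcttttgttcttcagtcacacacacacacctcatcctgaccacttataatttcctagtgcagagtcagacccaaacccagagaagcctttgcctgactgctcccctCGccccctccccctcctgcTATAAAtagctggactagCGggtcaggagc
Gria4, chr9:4796235-4796484, minus strand: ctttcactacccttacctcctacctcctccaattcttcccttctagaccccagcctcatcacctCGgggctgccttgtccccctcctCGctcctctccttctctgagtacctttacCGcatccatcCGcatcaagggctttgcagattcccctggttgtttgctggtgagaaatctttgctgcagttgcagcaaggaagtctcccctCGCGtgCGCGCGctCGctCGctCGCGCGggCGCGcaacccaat
Gabra3, chrX:72656920-72657169, minus strand: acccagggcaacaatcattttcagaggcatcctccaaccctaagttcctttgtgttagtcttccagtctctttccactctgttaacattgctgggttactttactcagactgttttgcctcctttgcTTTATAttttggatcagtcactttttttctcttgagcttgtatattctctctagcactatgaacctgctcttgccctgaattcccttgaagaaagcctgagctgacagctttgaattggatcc
Glrb, chr3:80913661-80913910, minus strand: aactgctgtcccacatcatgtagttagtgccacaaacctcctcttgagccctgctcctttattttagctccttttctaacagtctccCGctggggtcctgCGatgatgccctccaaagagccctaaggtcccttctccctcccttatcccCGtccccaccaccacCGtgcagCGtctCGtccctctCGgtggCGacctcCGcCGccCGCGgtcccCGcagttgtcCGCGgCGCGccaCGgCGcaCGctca
The *Glrb* run held 20 CG dinucleotides at 62.4% GC and the *Gria4* run 16 at 58.8% GC. The *Gabrb2* run had the same GC content of 58.8% with 8 CG dinucleotides, and the *Gabra3* run had none at 42.4% GC. The median over 32851 RefSeq promoters of this length was 52.4% GC. TATAAA began 30 bases before the first listed *Gabrb2* start and, on the opposite strand, 123 bases before the first listed *Gabra3* start. Both genes have further listed starts. The runs before *Gabrb2* starts 2 and 3 lacked TATAAA and had 54.0% and 36.8% GC. Before *Gabra3* start 2, in a run of 39.2% GC, the letters began 235 bases upstream. These letters were present in 12.4% of all 32851 promoters and upstream of 5 members (*Chrnb1*, *Gabra3*, *Gabrb2*, *Glra2* and *Grin3b*) among the 40 with a RefSeq promoter entry.

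LRH1 and its relative SF1 (*Nr5a1*) bind as monomers to a short response element, and this was searched for as CAAGGTCA and CAAGGCCA on both strands. CAAGGTCA lay in 1.33% of all promoters and, among members, upstream of *Grin2c*. CAAGGCCA lay in 1.99% of all promoters and upstream of *Chrna1*. The shorter AAGGTCA, which is contained in CAAGGTCA, was found in 4.08% of promoters and again upstream of *Grin2c*. ACAATGG, a SOX-type motif searched for because SOX9 marks Sertoli cells, was found in 3.02% of promoters and upstream of *Chrna9*. None of these 4 motifs was in the runs printed above.

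The targeted gene was lower in both mutants. *Nr5a2* averaged 0.764 FPKM in P1 controls and 0.491 in *Nanos3-Cre* testes, and 1.15 in P3 controls and 0.609 in *Dhh-Cre* testes. In the P3 mutants 9 of 10 Sertoli cell markers were lower by over 2-fold, with a median log2 ratio of -1.71, and their summed level was 549 FPKM against 1600 in controls. By contrast 4 of 6 markers of the interstitial mesenchyme and 4 of 4 of the mesothelium were higher by over 2-fold. Germ cell markers were near equal and summed to 97.9 against 98.5 FPKM. At P1 the 6 germ cell markers summed to 20.0 FPKM in *Nanos3-Cre* testes and 37.9 in controls. For P3, an approximate mean count per library could be derived from the level and the exonic length of a gene, because the authors' mean count equalled mean FPKM times exonic kilobases times 12.0 to within 5% in 98.7% of 699 genes. No such scale was derived for P1.

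Summed over all 54 members, receptor subunit mRNA was 35.8 FPKM in P1 controls, 36.2 in P1 *Nanos3-Cre* testes, 35.7 in P3 controls and 67.3 in P3 *Dhh-Cre* testes. The higher sum in P3 mutants came mainly from GABA-A and AMPA subunits, with a smaller part from glycine receptor subunits. The GABA-A and AMPA sums include *Gabrb2* (0.989 FPKM in P3 controls and 4.83 in mutants) and *Gria4* (1.43 and 6.19). These genes led to the choice of the family, so nothing is drawn from the class sums of this contrast. GABA-A subunits summed to 12.0 FPKM in P3 controls and 32.6 in P3 mutants, a ratio of 2.71, AMPA subunits to 5.14 and 14.0, a ratio of 2.73, and glycine receptor subunits to 1.16 and 2.94, a ratio of 2.54. The sums of the other 3 classes were near equal. Kainate subunits summed to 7.19 FPKM in P3 controls and 7.68 in mutants, NMDA subunits to 2.89 and 2.86, and nicotinic subunits to 7.34 and 7.22. At P1 the class sums of mutants and controls were close, with GABA-A at 14.3 FPKM in controls and 13.5 in mutants and AMPA at 6.33 and 6.75.

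**Figure D1:**
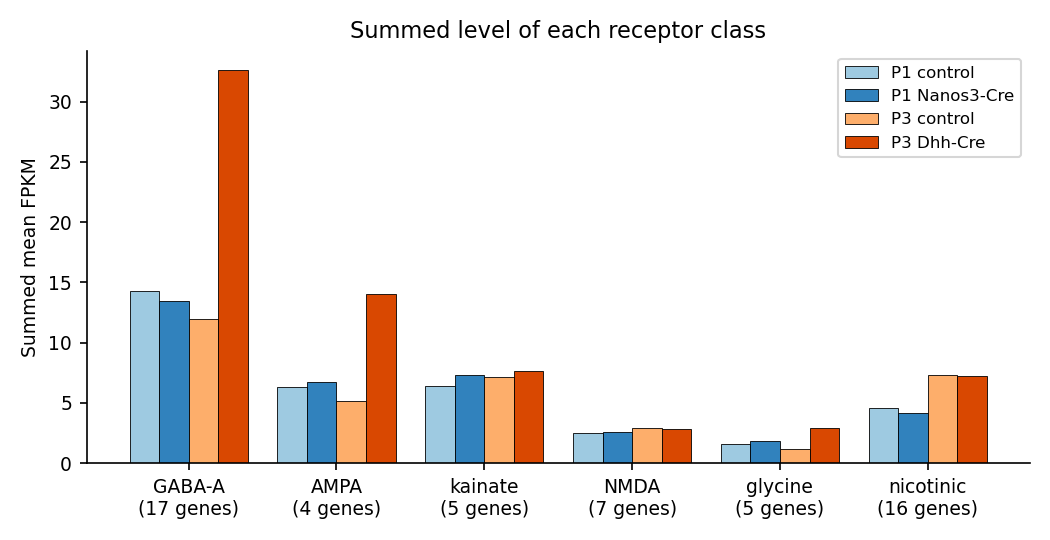
Summed mean FPKM of the members of each of 6 receptor classes (vertical axis) in the 4 groups, 1 bar per group with no error bar because only group means were used. In the P3 Dhh-Cre group the GABA-A bar stands at 32.6 against 12.0 in P3 controls and the AMPA bar at 14.0 against 5.14, while the kainate, NMDA and nicotinic bars of these groups are nearly level.

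At P3, 18 of the 54 members reached the minimum and 36 were under it. Of the 18, 9 were higher in *Dhh-Cre* testes by over 2-fold, 0 were lower by as much and 9 lay within 2-fold. Of all 16923 genes kept, 4.75% were higher and 3.58% were lower by over 2-fold. The kept members had a median log2 ratio of 1.04 (range -0.79 to 2.18), beside 0.00 for all genes (quartiles -0.21 and 0.27). Because this contrast was in view when the family was picked, nothing is drawn from these counts. *Gabra2*, *Gabrg1* and *Gria1* were under 0.5 FPKM in P3 controls and were kept through the mutant mean. Of these, *Gabra2* and *Gria1* are among the 9 higher members. With 0.5 FPKM required in each group, a setting chosen after seeing the data, 7 of 15 members were higher and 0 lower by over 2-fold. Under that setting 582 of 16031 genes were higher and 427 were lower. Over all 54 members, whatever their level, 38 had a higher mean in the mutants, 13 a lower one and 3 the same, and 49.6% of all 35983 genes were higher.

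Among the beta subunits of GABA-A receptors, which with alpha subunits form the GABA binding site, *Gabrb2* (ENSMUSG00000007653; GRCm38 chromosome 11, 42419757 to 42629028, plus strand) averaged 2.82 FPKM in P1 controls, 2.77 in P1 *Nanos3-Cre* testes, 0.989 in P3 controls and 4.83 in P3 *Dhh-Cre* testes. It was lowest in P3 controls and highest in P3 mutants, with a log2 ratio of 2.18 between them (4.53-fold on that scale), from roughly 75.8 to 370 counts per library. Of the 16923 genes kept, 36 had a higher P3 ratio. Without a pseudocount the ratio of means was 4.88 for *Gabrb2* and 5.75 for *Gria1*, so the order of these members depends on the pseudocount. *Gabrb1* (chromosome 5, 71658113 to 72149037, plus strand) averaged 0.683, 0.818, 1.03 and 2.99 FPKM in the same order of groups, with a P3 log2 ratio of 1.45 and roughly 172 and 499 counts. Both of these genes had their highest mean in the P3 mutants, and *Gabrb1*, unlike *Gabrb2*, was lowest at P1.

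The alpha subunits decide much of the pharmacology of the receptor. *Gabra3* (chromosome X, 72432681 to 72656848, minus strand) was the most abundant member in the P3 mutants, with 9.95 FPKM, beside 4.43 in P1 controls, 3.75 in P1 mutants and 3.71 in P3 controls. Its P3 log2 ratio was 1.40, from roughly 176 to 470 counts. *Gabra4* (chromosome 5, 71569749 to 71658308, minus strand), found in extrasynaptic receptors of brain, averaged 1.72, 1.59, 1.83 and 4.29 FPKM, a P3 log2 ratio of 1.19. *Gabra2* (chromosome 5, 70957597 to 71095849, minus strand) averaged 0.068 FPKM in P1 controls, 0.090 in P1 mutants, 0.475 in P3 controls and 1.51 in P3 mutants, a P3 log2 ratio of 1.48. *Gabra2* was thus near 0 in both P1 groups, unlike *Gabra3* and *Gabra4*. *Gabra5* stayed between 0.025 and 0.107 FPKM in the 4 groups.

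The remaining GABA-A genes encode subunits that take the place beside alpha and beta. *Gabre* (epsilon, chromosome X, 72255999 to 72274803, minus strand) averaged 0.495, 0.460, 1.27 and 2.29 FPKM, so both P3 groups were above both P1 groups, and the P3 log2 ratio of 0.80 was within 2-fold. *Gabrg1* (gamma 1) averaged 0.034, 0.087, 0.435 and 0.794 FPKM, in the same order of groups as *Gabra2*. *Gabrp* (pi), known from uterus and other epithelia, was low throughout, with 0.124 FPKM in P3 controls and 0.428 in mutants, or roughly 5.05 and 17.4 counts. Its log2 ratio of 1.24 was past 2-fold but its level was under the minimum. *Gabrg3*, *Gabrd*, *Gabrq* and the rho subunit genes *Gabrr1*, *Gabrr2* and *Gabrr3*, the last group known from retina, were under 0.5 FPKM in every group. In all, 9 of the 17 GABA-A genes were kept at P3, and 6 of these were higher by over 2-fold, beside 4.75% of all genes kept. These 6 include *Gabra2*, kept through its mutant mean, and nothing is drawn from this count either.

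The makeup of the GABA-A class was measured as the share of each gene in the summed FPKM. *Gabra3* held close to 30% in each group, with 31.0% in P1 controls, 27.7% in P1 mutants, 30.9% in P3 controls and 30.5% in P3 mutants. The share of *Gabrb2* was 19.7% and 20.4% at P1, 8.23% in P3 controls and 14.8% in P3 mutants. A class sum 2.71 times as high in the P3 mutants thus left the leading subunit gene with an almost equal share, while *Gabrb2* took a larger one.

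**Figure D2:**
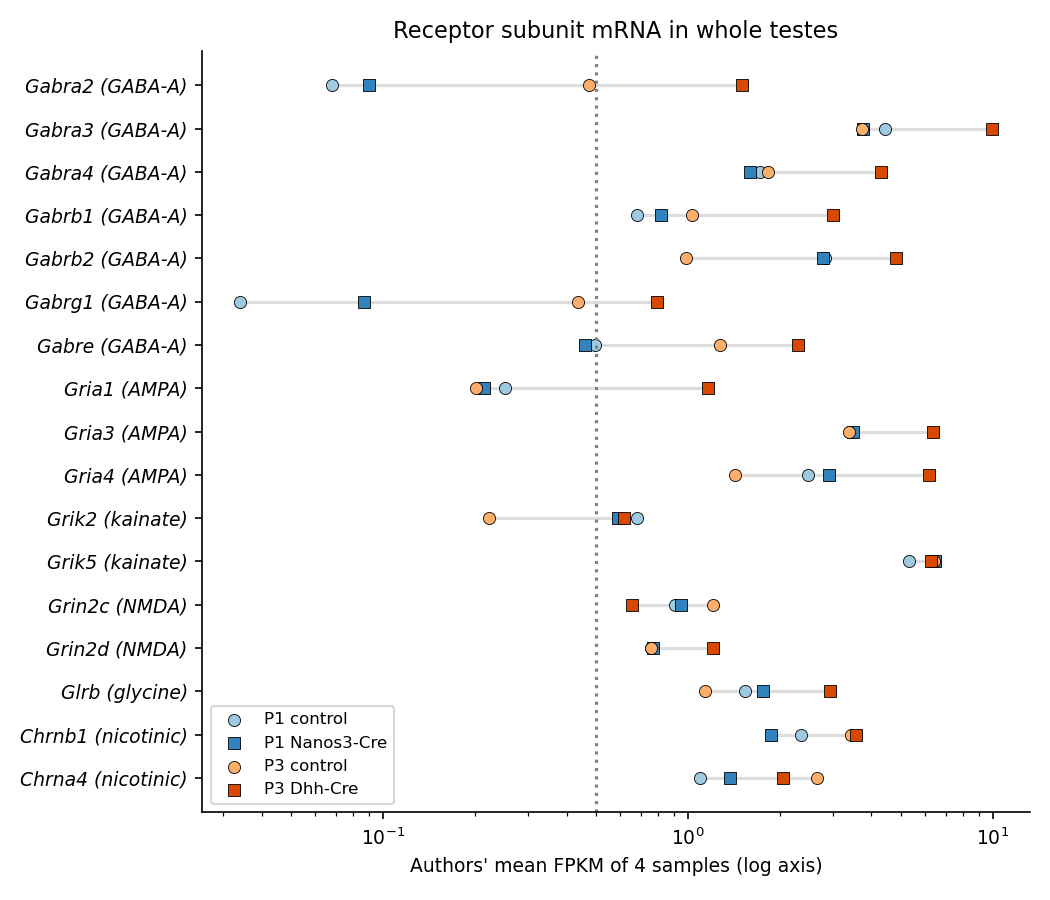
Mean FPKM of 4 samples (horizontal log axis) for 17 receptor subunit genes in P1 control, P1 Nanos3-Cre, P3 control and P3 Dhh-Cre testes, with a grey line joining the lowest and highest group and a dotted line at 0.5 FPKM. Gabrb2 and Gria4 are lowest in P3 controls and highest in P3 Dhh-Cre testes, Gabra2 and Gabrg1 lie under 0.1 FPKM at P1, and the 4 Grik5 means lie together between 5.33 and 6.49.

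Several of these genes are neighbours. *Gabrg1*, *Gabra2*, *Gabra4* and *Gabrb1* lie within 1398 kb on chromosome 5 (70751047 to 72149037). All 4 had higher means in P3 mutants, 3 of them by over 2-fold, and in controls *Gabra2* and *Gabrg1* were higher at P3 than at P1 while *Gabra4* was nearly equal. The 5′ ends of *Gabra4* and *Gabrb1* overlap by 196 bases on opposite strands, and reads were counted by strand. In the cluster of *Gabre*, *Gabra3* and *Gabrq* on chromosome X all 3 were higher and 1, *Gabra3*, was past 2-fold. Members of 1 cluster are not independent of each other.

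AMPA receptors carry most fast excitatory transmission in brain. *Gria4* (GluA4; ENSMUSG00000025892; chromosome 9, 4417896 to 4796234, minus strand) averaged 2.48 FPKM in P1 controls, 2.89 in P1 mutants, 1.43 in P3 controls and 6.19 in P3 mutants. As with *Gabrb2*, the P3 controls were the lowest group and the P3 mutants the highest, with a log2 ratio of 2.04 (4.12-fold) from roughly 108 to 470 counts. *Gria3* (chromosome X, 41400854 to 41678601, plus strand) averaged 3.45, 3.48, 3.38 and 6.38 FPKM. The first 3 groups were nearly equal for *Gria3*, and its P3 log2 ratio of 0.90 was within 2-fold. *Gria1* (chromosome 11, 57011387 to 57330244, plus strand) was at 0.251, 0.214 and 0.202 FPKM in the first 3 groups and at 1.16 in P3 mutants, a log2 ratio of 2.06 that rested on roughly 14.7 and 84.5 counts. *Gria2*, whose edited product makes AMPA receptors nearly impermeable to calcium, was low in all groups, with 0.148, 0.157, 0.137 and 0.290 FPKM. *Gria3* held 65.7% of the AMPA sum in P3 controls and 45.5% in mutants, and *Gria4* held 27.7% and 44.1%.

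The summed levels of kainate and of NMDA subunit genes were near equal between the P3 groups, but their single genes were not all so. Higher means in P3 mutants were found for 4 of 5 kainate and 4 of 7 NMDA genes, beside 49.6% of all genes. *Grik5* (chromosome 7, 25009849 to 25072346, minus strand), whose product forms channels only with other kainate subunits, was the most abundant member in P3 controls and had close means, with 5.33, 6.49, 6.40 and 6.27 FPKM. It made up 89.0% of the kainate sum in P3 controls and 81.7% in mutants. Its partner gene *Grik2* (chromosome 10, 49094833 to 49788766, minus strand) averaged 0.682 and 0.588 FPKM at P1, 0.222 in P3 controls and 0.619 in P3 mutants. The P3 controls were again the lowest group, and the log2 ratio of 1.16 was past 2-fold with a mean under the minimum. *Grik1*, *Grik3* and *Grik4* were between 0.039 and 0.320 FPKM. Together, *Grik1*, *Grik2* and *Grik3* summed to 0.619 FPKM in P3 controls and 1.19 in P3 mutants, so the near equal kainate sum mostly reflects *Grik5*.

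Among NMDA genes, *Grin2c* (chromosome 11, 115249169 to 115267243, minus strand) averaged 0.904, 0.950, 1.21 and 0.657 FPKM, and *Grin2d* (chromosome 7, 45831883 to 45878378, minus strand) averaged 0.756, 0.769, 0.756 and 1.21 FPKM. At P3 these GluN2 genes went in opposite directions, with log2 ratios of -0.79 for *Grin2c* and 0.62 for *Grin2d*, both within 2-fold. The *Grin2c* ratio was the lowest of the 18 members kept. The share of *Grin2c* in the NMDA sum was 41.7% in P3 controls and 22.9% in mutants, and that of *Grin2d* 26.2% and 42.3%. *Grin1*, the subunit gene that every NMDA receptor requires, stood at 0.116 to 0.189 FPKM, and the other NMDA genes were at or under 0.390 FPKM.

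Glycine receptors combine alpha subunits, which can form channels alone, with the beta subunit that anchors them to gephyrin. *Glrb* (beta; chromosome 3, 80843599 to 80913660, minus strand) averaged 1.54, 1.77, 1.14 and 2.93 FPKM, a P3 log2 ratio of 1.29 from roughly 63.8 to 164 counts. It held 95.7% to 99.5% of the class sum in the 4 groups. All 4 alpha genes, *Glra1*, *Glra2*, *Glra3* and *Glra4*, were at or under 0.069 FPKM in every group, and each was listed at 0 in at least 1 group.

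The nicotinic class was led by *Chrnb1* (beta 1 of the muscle receptor; chromosome 11, 69784036 to 69795943, minus strand), with 2.35, 1.87, 3.43 and 3.56 FPKM, and by *Chrna4* (chromosome 2, 181018380 to 181043546, minus strand), a main nicotinic subunit gene of brain, with 1.10, 1.38, 2.65 and 2.05 FPKM. Both had higher means at P3 than at P1 in mutants and controls alike. Their P3 log2 ratios of mutant over control were 0.05 and -0.35. The other 14 nicotinic genes were under 0.5 FPKM in every group. These included *Chrna1*, *Chrnd*, *Chrne* and *Chrng*, the further subunit genes of the muscle receptor, at 0.194 FPKM or less, and *Chrnb2*, the usual partner gene of *Chrna4*, at 0.145 to 0.210 FPKM.

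In the germ cell deletion at P1, 15 of 54 members reached the minimum, and 0 were higher and 0 were lower by over 2-fold, beside 1.15% and 1.39% of the 16121 genes kept. The median log2 ratio of these 15 was 0.02, and the median over all genes was 0.02. *Gabrb2* had a P1 log2 ratio of -0.03, *Gria4* of 0.21, *Gabrb1* of 0.23 and *Gabra3* of -0.24. Over all 54 members 23 were higher, 30 were lower and 1 was equal, with 45.9% of all genes higher. The P1 and P3 contrasts differ in age, in the Cre line and in the second *Lrh1* allele, and the difference between them was not tested.

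**Figure D3:**
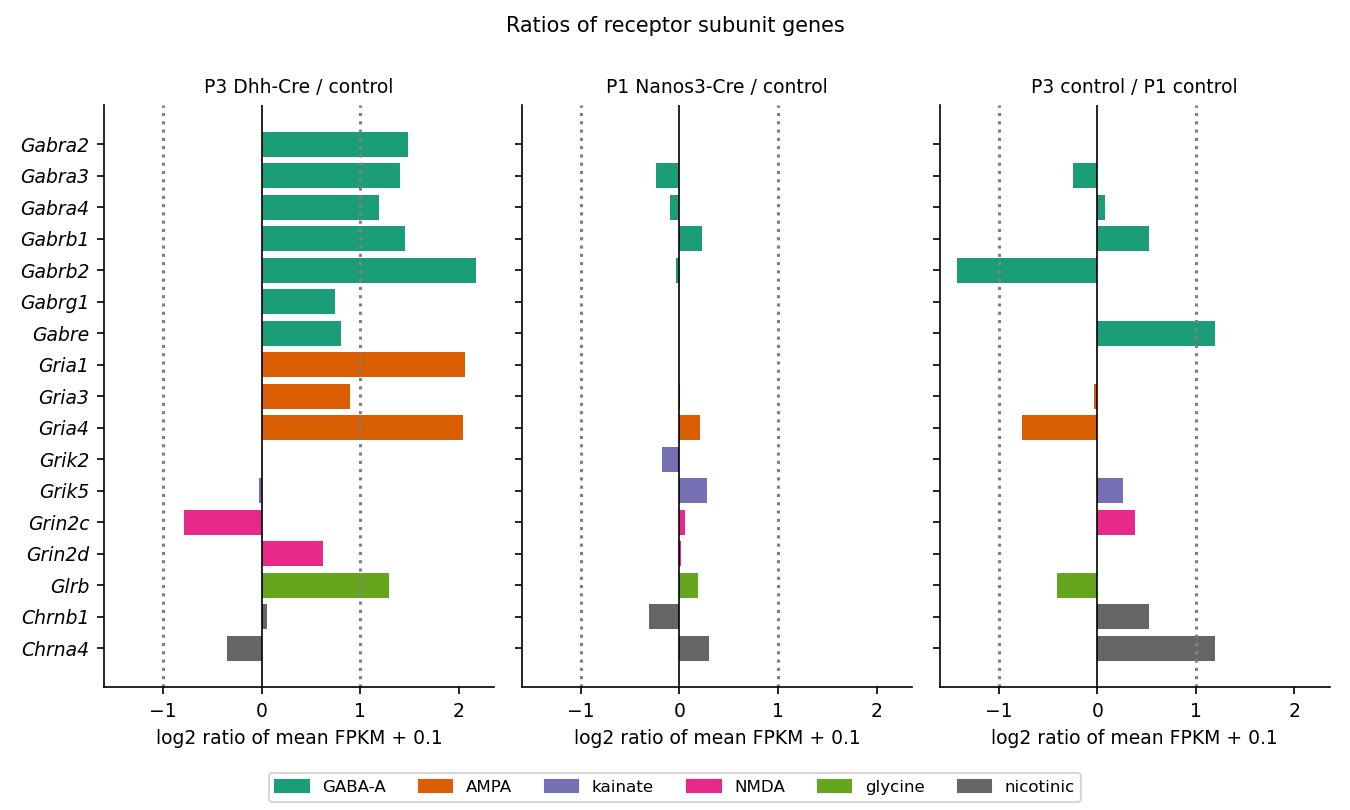
log2 ratio of mean FPKM + 0.1 (horizontal axes) for 17 of the members kept in 3 comparisons, coloured by receptor class, with dotted lines at 2-fold. Bars of 8 of the genes drawn pass 2-fold to the right in P3 Dhh-Cre over control and 0 pass it in P1 Nanos3-Cre over control, while in P3 control over P1 control 2 pass it to the right and 1 to the left. A row without a bar was under the minimum in that comparison or had a ratio near 0.

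The controls of the P1 and P3 experiments could be set side by side, although they also differed in genotype (flox/- and flox/flox), in part in RNA input and in how the labels name the libraries, so age cannot be told apart from these. Of 15 members kept, 2 were higher at P3 by over 2-fold (*Gabre*, log2 ratio 1.20, and *Chrna4*, 1.20) and 2 were lower (among them *Gabrb2*, -1.42), beside 6.36% and 3.89% of 16521 genes. With a pseudocount of 0.5 FPKM the *Gabre* and *Chrna4* ratios were 0.83 and 0.98, within 2-fold, and *Gabre*, at 0.495 FPKM in P1 controls, was kept through its P3 mean. The sum of FPKM over all genes was 382861 in P1 and 323690 in P3 controls, and with these sums made equal 1887 genes were higher and 396 lower, in place of 1050 and 643. The median of the kept members was 0.00 and that of all genes 0.15 (quartiles -0.20 and 0.47). *Gria4* had a ratio of -0.76. Under the minimum, *Gabra2* (1.78), *Gabrg1* (2.00), *Grik3* (1.07) and *Grik2* (-1.28) were also past 2-fold. This comparison and that of the P3 mutants share the P3 control means, so a low control value enters both: for *Gabrb2* the P3 mutant mean of 4.83 FPKM stood beside 2.82 in P1 controls, for *Gria4* 6.19 beside 2.48 and for *Grik2* 0.619 beside 0.682.

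The order of the members by level also differed between the P3 groups. In P3 controls *Grik5* led, followed by *Gabra3*, *Chrnb1* and *Gria3*. In the P3 mutants *Gabra3* led, followed by *Gria3*, *Grik5*, *Gria4* and *Gabrb2*. As no spread is known, neighbours in these orders, such as *Gria3* with 6.38 FPKM and *Grik5* with 6.27, cannot be called different. At least 0.5 FPKM was reached by 15 members in each of the first 3 groups and by 19 in the P3 mutants. How many of all genes reached it in each group was not counted. The P3 contrast led to the choice of the family, so nothing is drawn from these counts.

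Genes that make, carry or break down the transmitters were also measured. Of 9 genes for GABA, 2 were kept at P3 and 0 were past 2-fold. These were the breakdown enzyme genes *Abat*, with 29.955 FPKM in P3 controls and 24.6 in mutants, and *Aldh5a1*, with 8.52 and 7.53. The synthesis genes *Gad1* and *Gad2* were at or under 0.244 FPKM in every group. For glutamate, 8 of 13 genes were kept, and 1 was higher and 1 was lower by over 2-fold. The higher one was the glial-type uptake carrier *Slc1a3* (3.39 FPKM in P3 controls and 7.04 in mutants) and the lower one the carrier *Slc1a6* (5.88 and 1.68). Glutamine synthetase *Glul*, the most abundant of the list, was at 164 and 267 FPKM, within 2-fold. The vesicular carriers of glutamate *Slc17a6*, *Slc17a7* and *Slc17a8* were at or under 0.257 FPKM. *Slc6a9*, a glycine carrier, was at 6.76 and 5.32 FPKM. For acetylcholine, *Chat* was at or under 0.071 FPKM in every group, and the esterase *Bche*, the 1 gene kept of 5, was at 5.97 and 12.1 FPKM, a log2 ratio of 1.01.

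Receptors of the same transmitters that act through G proteins were mostly low. All 8 metabotropic glutamate receptor genes were under 0.5 FPKM in every group. *Gabbr1*, a GABA-B subunit gene, was at 5.88 FPKM in P3 controls and 7.60 in mutants, while *Gabbr2*, which the receptor needs to signal, was at or under 0.102 in all groups. *Chrm2*, a muscarinic receptor gene, was at 1.29 FPKM in P1 controls, 1.04 in P1 mutants, 1.22 in P3 controls and 4.13 in P3 mutants, a P3 log2 ratio of 1.68. It was the 1 muscarinic gene of 5 kept.

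Of 35 measured genes for assembly, anchoring and auxiliary subunits, 26 were kept at P3. Their median log2 ratio was 0.17, with 2 higher and 3 lower by over 2-fold, beside 4.75% and 3.58% of all genes kept. The AMPA auxiliary subunit genes did not go one way: *Shisa9* was at 1.08 FPKM in controls and 3.10 in mutants, whereas *Shisa6* was at 6.40 and 2.05 and *Gsg1l* at 14.2 and 5.52. *Ly6h*, whose product binds nicotinic receptors, was also higher (1.31 and 3.29), and *Shisa7*, a GABA-A auxiliary gene, was lower (1.61 and 0.713). *Gphn*, encoding the anchor gephyrin, was near equal at 3.13 and 3.42 FPKM. The chloride carriers that set the direction of GABA currents, *Slc12a2* (6.87 and 6.69) and *Slc12a5* (0.714 and 0.558), were within 2-fold. At P1, 0 genes of these 9 lists were past 2-fold.

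Some marker lists of other cells were also higher or lower in the P3 mutants, and others were near equal. Their part in the P3 receptor values was not tested. Beside the lower Sertoli markers, the median log2 ratio of kept markers was 1.19 for interstitial mesenchyme (summed level 915 FPKM in controls and 2030 in mutants), 1.30 for mesothelium (35.7 and 93.4), 0.78 for macrophages (30.6 and 64.8), 0.74 for endothelium (41.8 and 61.4), 0.57 for Leydig cells and 0.53 for peritubular myoid cells. Because receptors of this kind are best known from nerve cells, 12 neuronal markers were read as well. Of these, 7 were under 0.5 FPKM in the P3 mutants and 8 in the P3 controls. The synaptic gene *Snap25* was at 0.162 FPKM in controls and 0.119 in mutants. *Syt1* (0.988 and 2.36), *Stmn2* (0.269 and 0.733) and *Nefl* (0.748 and 1.79) were higher in mutants by over 2-fold, and *Tubb3* was lower, at 29.2 and 11.4. The 5 neuronal markers kept had a median log2 ratio of 1.16, with *Stmn2* kept only through its mutant mean. The summed neuronal level, mostly *Tubb3*, was 33.2 FPKM in controls and 19.0 in mutants. The glial and Schwann cell list was at 37.1 and 36.1 FPKM, with *Sox10* at 0.991 and 1.505. Skeletal muscle markers summed to 3.22 and 4.46 FPKM and adrenal cortex markers to 13.5 and 15.8.

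**Figure D4:**
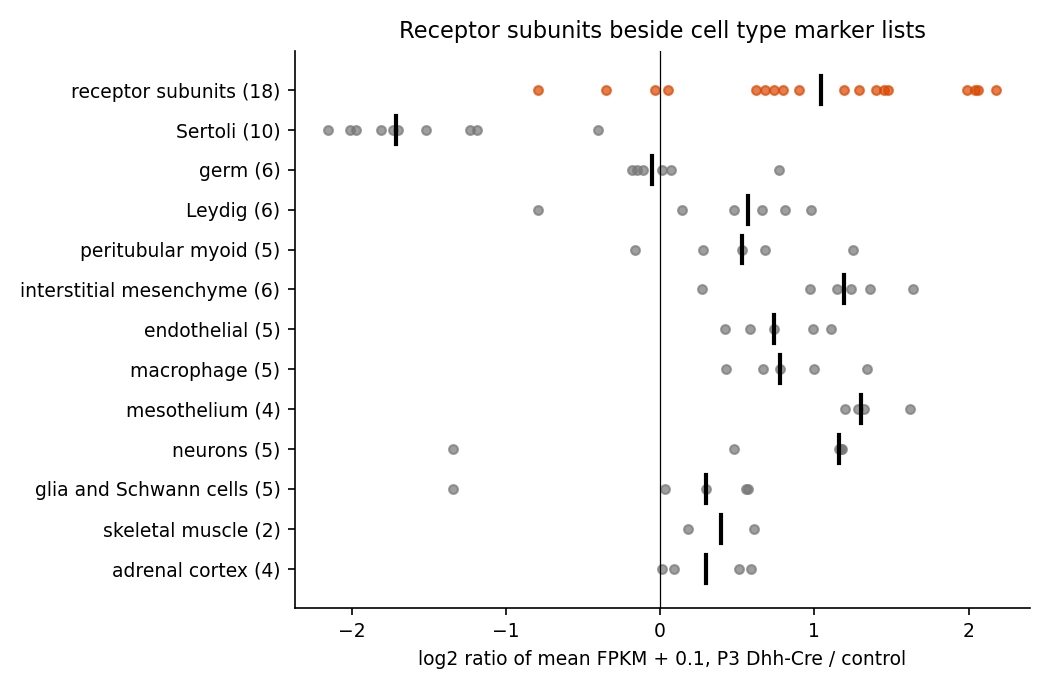
log2 ratio of mean FPKM + 0.1 in P3 Dhh-Cre over control testes (horizontal axis) for the 18 receptor subunit genes kept (orange) and for kept genes of 12 marker lists (grey), with the number of genes in brackets and a black line at each median. Sertoli markers lie to the left with a median of -1.71, neurons, interstitial mesenchyme and mesothelium have medians of 1.16, 1.19 and 1.30 beside 1.04 for the receptor subunits, and germ cell markers lie around -0.05.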

How the data were processed

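mRNA of whole testes from 16 samples in 4 groups was sequenced from stranded poly(A) libraries made from 400 or 500 ng of RNA. At P1, 1 sample of each group had 400 ng and 3 had 500 ng, and all P3 samples had 400 ng. Groups were taken from the labels, which name the samples as replicates. Per the submitters' processing notes the authors used Trim Galore 0.6.0, cutadapt 1.18 and FastQC 0.11.8 on the reads and aligned them by STAR 2.7.2a against GRCm38 (mm10). The authors counted aligned reads by strand with RSubread and compared groups with DESeq2. The authors deposited FPKM as 1 mean per group, with the definition of library totals not stated in the sources read. Their lists of called genes hold log2 fold changes and adjusted p-values, which were not used. From the P3 list the authors' mean count per gene, a scaled signal, was used only to gauge counts behind FPKM. The depth of single libraries is unknown, and intervals could not be given.

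Ratios were log2(mean FPKM + 0.1) for genes averaging 0.5 FPKM or more over the compared groups, computed with Python 3.11.15 and pandas 2.3.3 and tested on simulated data. A fold of 2 was used for counts, with no p-value. This replaced a planned limma fit, since values per sample were not used here. Gene positions came from a GENCODE M21 annotation, which matched 99.7% of identifiers and all 54 members, and promoters from RefSeq, which matched 40 members. Members with a mean over the 4 groups of at least 0.5 FPKM were described singly, and others were named where their ratio passed 2-fold at a mean of at least 0.1 FPKM. Further members are named by class, and this wider naming was made after their values were seen. The members, the 9 pathway lists, the 12 marker lists and the motifs were chosen with earlier results of these data known. Some members and markers are not reported here by name, although counts, sums and medians include them. Alternatives were another pseudocount, minimum, fold or scaling.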

Additional observations from a re-analysis of the deposited data

How the results depend on the processing

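No paired analysis was possible because only group means were used, and for the same reason no replicate could be left out. At P1, 0 members were past the fold in either direction under every setting tried. At P3 the 9 members higher became 14 at a fold of 1.5 and 4 at a fold of 3, and the 0 members lower became 1 at a fold of 1.5. Between controls, the 2 members higher at P3 became 0 with a pseudocount of 0.5 FPKM, 5 with a minimum of 0.1 FPKM, 1 with a minimum of 1 FPKM, 5 with no minimum and 0 at a fold of 3. They became 1 when 0.5 FPKM was required in each group, a setting chosen after seeing the data. The 2 members lower became 0 at a fold of 3. No member reversed its direction where it had been past the fold. A larger pseudocount shrinks the ratios of weakly expressed genes, and a changed minimum or fold alters which genes are eligible or the ratio required, by construction.

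Counts over all genes moved by more than 1.5 times under some settings. At P3 the 803 higher and 606 lower genes became 1466 and 1126 with a minimum of 0.1 FPKM, 1796 and 1406 with none, 2107 and 1411 at a fold of 1.5 and 150 and 188 at a fold of 3, and the higher ones 450 with a pseudocount of 0.5. At P1 the 186 higher and 224 lower became 102 and 103 with a pseudocount of 0.5, 649 and 780 with a minimum of 0.1, 96 and 114 with a minimum of 1, 892 and 1152 with none, 511 and 557 at a fold of 1.5, 68 and 67 at a fold of 3 and 90 and 109 with 0.5 FPKM in each group. Between controls the 1050 higher and 643 lower became 652 and 423 with a pseudocount of 0.5, 2046 and 1288 with a minimum of 0.1, 2425 and 1679 with none, 3051 and 1664 at a fold of 1.5 and 362 and 212 at a fold of 3, and the higher ones 657 with 0.5 FPKM in each group.

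The median of all genes between controls was 0.15 as deposited, 0.39 with sums made equal and -0.01 with trimmed mean scaling. At P3 the medians lay between -0.05 and 0.02 in every setting. Levels near 0.1 FPKM rest on few counts per library and cannot rank weakly expressed members.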
